A study of Mus musculus with 4 samples.

Results

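The splicing factors described here are the genes whose array symbol begins with Hnrnp, Srsf, Sf3a, Sf3b, U2af or Snrp, leaving out Snrpn. All probe sets of the array that the platform annotation assigns to 1 such gene were taken, which gave 117 of 22690 probe sets and 46 of 12393 genes. They comprise 50 probe sets for 18 hnRNP genes, 28 for 9 SR protein genes, 25 for 12 genes of SF3a, SF3b and U2AF, and 14 for 7 Snrp genes. A further 15 probe sets assigned to several genes at once were left out, so Hnrnpa3, Hnrnpa1l2-ps2, Snrpa, Snrpd1 and Snrpd2, which had only such probe sets, have no value here. The rule reads gene names and no measured value.

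The cells were mouse neural stem cells, isolated at embryonic day 14.5 from the ganglionic eminences of the ventral forebrain, on the C57/Bl6 background, grown in serum-free medium with EGF. There was 1 array of wild-type (WT) cells and there were 3 arrays of Olig1 KO cells, which lack the oligodendrocyte lineage transcription factor gene Olig1 by label. KO replicates 2 and 3 carry the numbers 37 and 38 in their titles, and KO replicate 1 carries none. The design of the KO allele is not in the labels, and neither is the number of animals or cultures behind the KO samples. The comparison addresses how the transcripts of cultured stem cells differ with the Olig1 genotype.

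Splicing removes introns from pre-mRNA in the spliceosome, a machine of small nuclear ribonucleoproteins (snRNPs) and many further proteins. The Snrp genes encode the Sm proteins that ring each spliceosomal snRNA and the specific proteins of the U1 and U2 snRNPs. U2AF binds the 3' splice site, and the SF3a and SF3b complexes are parts of the U2 snRNP that hold it at the branch point. SR proteins bind exons and mostly favour their inclusion, while hnRNP proteins coat nascent RNA and often favour skipping. In neural progenitors both groups are known to be abundant and to set which exons are kept as cells differentiate. Many of these genes regulate their own transcripts through alternative exons or introns.

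Each value is a MAS5 signal, the brightness of a probe set on a linear scale after each array was scaled by the authors to a common trimmed mean of about 500.2. Median signals were 140.8 to 146.7. For the targeted gene itself the KO arrays lay on both sides of WT. Olig1 gave 7618 in WT, against 3840, 4438 and 8548 in KO replicates 1 to 3, and as the position of its probe set in the KO allele was not known here, this does not check the labels. Stem cell genes were present, with Sox2 at 3759 to 4848 and Fabp7 at 13667 to 34007 over the 4 arrays, and 10 of 11 measured neural stem cell markers were above background in every array. Background is taken as the highest value among 27 bacterial controls, 30.5 in WT, then 21.3, 39.99 and 87.8 in KO replicates 1 to 3. These controls were assumed to have no target in the sample, and whether transcripts for them had been added was not known here. Of 10 ganglionic eminence markers, only Olig2 was above background in every array, and Dlx1, Gsx2, Nkx2-1 and Lhx8 were above it in none. Summed signals of the neuron list (10 genes, 4 above background throughout) were 3016 in WT and 1957 to 2899 in the KO arrays, those of the astrocyte list (6 genes, 5 above throughout) 8231 against 5362 to 7132, and those of the oligodendrocyte lineage list (9 genes, 5 above throughout, Mog and Mobp above in none) 10059 against 6189 to 12692. The oligodendrocyte lineage list includes Olig1 itself, whose signal was the largest of that list in each array, so its sums mostly follow the Olig1 values above. Most of each neuron sum came from Map2 (1766 in WT and 1447, 784.3 and 592.7 in KO) and Gap43 (808.6 and 1036, 1776 and 731.4). Tubb3 ran the other way from the sums, at 46.9 in WT and 63.3, 61.9 and 92.0 in KO. Microglia (6 genes, 1 above throughout, C1qa above in none), endothelium (5 genes, 0 above throughout, Tek above in none), mesenchyme (5 genes, 1 above throughout) and erythroid lists (2 genes, 0 above throughout, Alas2 above in none) summed to 424.7 or less in each array.

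The arrays also split in a way that cuts across genotype, with WT beside KO replicate 1 and KO replicate 2 beside KO replicate 3. Xist, a long noncoding RNA of X inactivation, gave 9480.5 in WT and 8472 in KO replicate 1, against 160.9 and 46.5 in the others. The Y-linked gene Eif2s3y gave 0.608 and 1.53 against 653.8 and 1160.5, Kdm5d 16.4 and 20.7 against 390.7 and 232.8, and Uty 26.1 and 36.8 against 278.4 and 190.3. By these genes WT and KO replicate 1 read as female cells and KO replicates 2 and 3 as male cells, so KO replicate 1 does not share its cells with KO replicates 2 and 3, while the last pair may still differ only technically. Control probe sets for 18S ribosomal RNA had medians of 4.64 and 7.24 against 946 and 2820. As a measure of RNA integrity, the beta-actin signal at the 3' end over that at the 5' end was 1.11 in WT, then 1.25, 1.30 and 1.82 in KO replicates 1 to 3, and that of Gapdh 0.759, 0.794, 1.03 and 0.842. The part of sex, 18S and RNA integrity in the values below was not tested, and KO replicate 1 with WT is the only comparison of the genotypes within 1 sex.

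Splicing factor transcripts were measured above background in both genotypes. Of the 117 probe sets, 112 passed a filter that left out the 40% of probe sets with the lowest mean, and every one of the 46 genes kept at least 1. All 112 were above background in every array, with WT signals from 78.6 to 7580.1 and a median of 1555. The 5 left out had a second, tested probe set for the same gene. They belong to Sf3b5, Sf3b6, Snrpb2, Hnrnpa1 and Hnrnpab, and the brightest of them, for Hnrnpab, had a mean log2 value of 6.41, while the dimmest probe set that was tested, for Sf3a1, had 6.76.

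No splicing factor passed the test between KO and WT. In limma's moderated test on log2(signal + 14.4), 0 of 112 probe sets had an adjusted p under 0.05, and over all 12228 probe sets tested 0.0% did. At an unadjusted p under 0.05 it was again 0 of 112, against 2.51% of all probe sets. The smallest unadjusted p among the members was 0.0902, and the smallest adjusted p was 0.999. The log2 differences of KO from WT ran from -0.95 to 0.93 on this scale, which understates folds because of the added 14.4. The plain mean KO signal was over 2-fold higher in 1 probe set, of Hnrnpab (1426114_at; 2770.4 against 1249), where KO replicate 3 alone was more than 2-fold above WT. By log2(signal + 14.4), 0 members had the WT array at least 2-fold below or above every KO array, against 0.164% and 0.221% of all probe sets. Without KO replicate 1, 6 of 112 members had an unadjusted p under 0.05, all with a lower KO mean, against 8.31% of all probe sets, but again no member passed (smallest limma adjusted p = 0.544). These 6 were probe sets of Sf3a1, Sf3b2 (2 of them), Srsf1, Hnrnpc and Hnrnpab. Leaving out KO replicate 1 set a female WT array against male KO arrays, by Xist and the Y-linked genes. Genotype and sex thus differed together in that fit, and the part of each was not tested. The spread had to be taken from the KO arrays alone, and the single WT array was assumed to vary like them. In simulated data of this design, with spreads drawn from the distribution limma itself had fitted and 200 of 12228 probe sets changed in each run, the test recovered 0.6% of changes of 1 on the log2 scale, 26.2% of changes of 2 and 80.6% of changes of 3, so a 2-fold change was not detectable here. The simulated arrays varied independently, without the split of the real arrays, so these percentages may be too favourable.

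By order alone, the WT array lay below all 3 KO arrays in 17 members (15.2%, against 22.6% of all tested probe sets) and above all 3 in 28 (25.0%, against 23.6%). Without KO replicate 1 these counts were 31 and 59 (27.7% and 52.7%, against 34.2% and 38.2% of all tested probe sets). There the WT array read as female and the KO arrays as male, so these counts cannot separate genotype from sex. The counts were 25 and 28 without KO replicate 2 (22.3% and 25.0%, against 27.6% and 28.7%), and 28 and 31 without KO replicate 3 (25.0% and 27.7%, against 32.7% and 31.1%). After median scaling of the arrays they were 22 and 21 (19.6% and 18.8%, against 25.2% and 21.5%). After quantile normalization they were 17 and 24 (15.2% and 21.4%, against 24.8% and 22.2%). Among the members, WT above was thus more frequent than WT below in the main fit and after quantile normalization, but not after median scaling. In these 3 settings the share with WT above was near or under that of all tested probe sets, so there it is not particular to the members. Without KO replicate 1 that share was higher in the members, at 52.7% against 38.2%, but sex differed along with genotype. The median log2 difference of the members was -0.10, beside -0.019 for all tested probe sets. It was -0.21, -0.049 and -0.039 when KO replicates 1, 2 and 3 were left out in turn, and -0.02 with 1 probe set per gene. Taken array by array, the median differences from WT were 0.076, -0.15 and -0.25 in KO replicates 1 to 3, where all tested probe sets had 0.016, -0.0074 and -0.05. The median of KO replicate 1 was thus on the other side of the WT array from KO replicates 2 and 3.

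**Figure D1:**
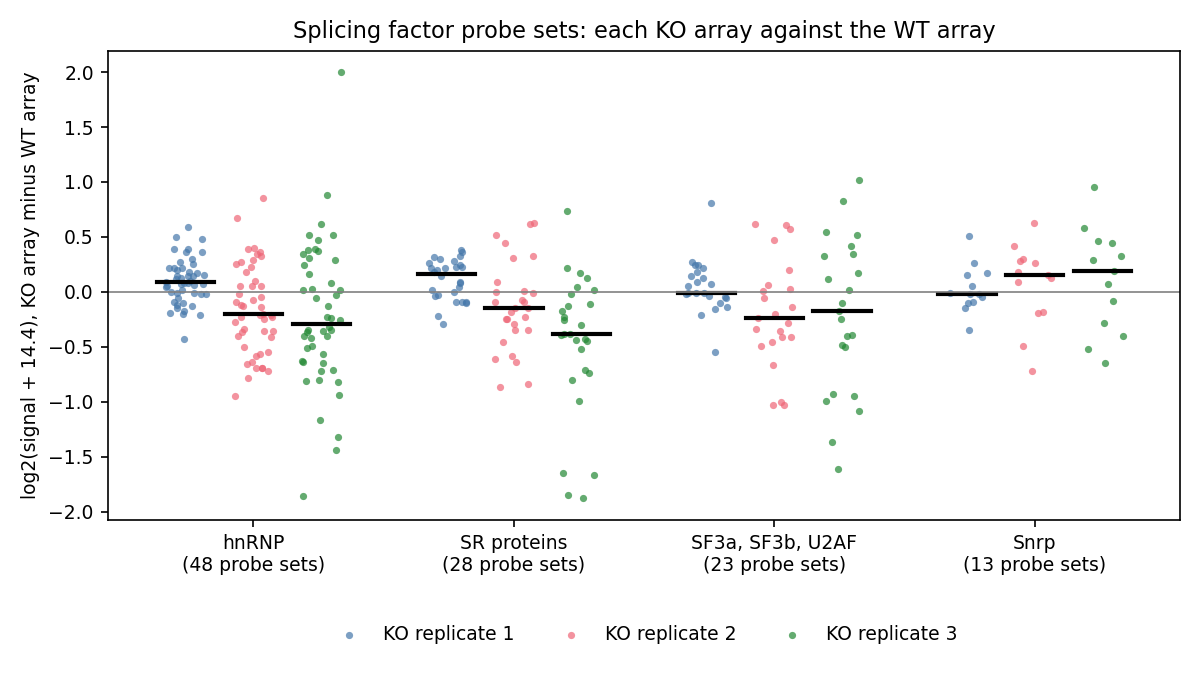
Difference in log2(signal + 14.4) of each KO array from the WT array (vertical axis) for the 112 tested splicing factor probe sets, by family; each point is 1 probe set and each black bar the median of its column. Points of KO replicate 1 spread least, and SR protein medians are 0.16, -0.15 and -0.38 in KO replicates 1, 2 and 3, while those of the Snrp genes are -0.017, 0.15 and 0.19.

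Among the hnRNP genes, which encode the abundant RNA-coating proteins, 48 of 50 probe sets were tested, none passed, and the KO mean was higher for 19 and lower for 29, with a median log2 difference of -0.11 (-0.25, -0.061 and -0.045 without KO replicates 1, 2 and 3 in turn). The WT array lay below all KO arrays in 9 (18.8%, against 22.6% of all tested probe sets) and above all in 11 (22.9%, against 23.6%). Hnrnpl, whose protein binds CA-rich RNA and regulates alternative exons, gave 607.2 in WT, against 523.7, 371.7 and 156.5 in KO replicates 1 to 3. Every KO array was below WT, but KO replicate 1 was nearer to WT than to KO replicate 3, and the log2 difference was -0.92 (SE 0.62, limma adjusted p = 0.999). Hnrnpk, which encodes a poly(C)-binding hnRNP, had a probe set with WT below every KO array, at 488.9 against 582.7, 783.7 and 682.9. Its log2 difference was 0.46 (SE 0.34), and the other 3 Hnrnpk probe sets differed by -0.11 to -0.07. Hnrnpdl, a paralogue of Hnrnpd, had 1 widely scattered probe set (1428224_at), at 487.7 in WT and 693.9, 246.4 and 308.8 in the KO arrays, which lie on both sides of WT. Hnrnpa2b1, which encodes the major A2/B1 proteins, gave 1618 in WT and 2082, 2136 and 2117 with 1 probe set (1433830_at). The KO arrays were close together, at 2112 ± 27.6 (SD, n = 3), with a log2 difference of 0.38 (SE 0.31), and the gene's other probe sets differed by -0.16 to 0.38. Hnrnpa2b1 was chosen after its values were seen.

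In the SR protein genes, 28 of 28 probe sets were tested, none passed, and the KO mean was higher for 11 and lower for 17 (median -0.14, and -0.23, -0.053 and -0.05 without KO replicates 1, 2 and 3 in turn). KO replicate 3 was the lowest of the 4 arrays in 20 of 28 probe sets (71.4%), against 36.5% of all tested probe sets. Srsf9, a short member of the SR proteins, gave 2301 in WT, against 2258, 1538 and 724.5 in KO replicates 1 to 3. WT and KO replicate 1 were close together and the log2 difference was -0.75 (SE 0.60, limma adjusted p = 0.999). Srsf10, an SR protein known for its response to dephosphorylation after heat shock, had 2 probe sets with every KO array below WT. One (1418527_a_at) gave 1074 in WT and 877.4, 777.2 and 649.6 in KO (log2 difference -0.49, SE 0.34), and the other (1418526_at) gave 458.1 against 390.8, 389.4 and 315.5 (log2 difference -0.32, SE 0.33). The remaining Srsf10 probe sets differed by -0.17 and -0.03. Srsf5 ran the other way, at 4711 in WT and 5635, 6744 and 4787 in the KO arrays, with KO replicate 3 barely above WT and a log2 difference of 0.27 (SE 0.35). Srsf2, the SR protein SC35 of nuclear speckles, gave 4286 with 1 probe set (1427504_s_at) in WT, against 4733, 3348 and 1335 in KO. KO replicate 3 alone was 0.312 times WT, and the gene's other probe sets differed in the mean by -0.32 to 0.10.

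For SF3a, SF3b and U2AF, which recognise the branch point and the 3' splice site, 23 of 25 probe sets were tested and none passed. The KO mean was higher for 8 and lower for 15, with a median of -0.19 (-0.33, -0.14 and -0.081 without KO replicates 1, 2 and 3 in turn). Sf3b3, a scaffold subunit of SF3b, had the smallest unadjusted p of all members. Its signal was 461.5 in WT and 822.8, 710.1 and 666.3 in the KO arrays, or 733.1 ± 80.8 (SD, n = 3). The KO arrays did not overlap the WT value and KO replicate 1 was the highest of them, but the log2 difference of 0.65 (SE 0.33, unadjusted p = 0.0902, limma adjusted p = 0.999) did not pass. Sf3b2, the subunit that contacts the branch region, gave 1076 in WT against 964.8, 530.1 and 407.5 with 1 probe set (1456040_at) and 849.4 against 823.2, 408.2 and 393.7 with another (1456352_a_at). In both, KO replicate 1 stayed near WT while KO replicates 2 and 3 were between 0.379 and 0.492 times WT. The other 2 Sf3b2 probe sets differed by -0.43 (1433461_at) and -0.01 (1438637_x_at), the latter with KO replicate 3 at 1.13 times WT. U2af1, the small U2AF subunit that reads the AG of the 3' splice site, gave 1703 in WT and 2020, 1282 and 849.4 in the KO arrays, which lie on both sides of WT. U2af2, the large subunit that binds the polypyrimidine tract, gave 1436 against 1379, 1131 and 1088, a log2 difference of -0.26 (SE 0.33). U2af1 and U2af2 were chosen for their role and not by a rule.

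The Snrp genes had 13 of 14 probe sets tested, none passed, and the KO mean was higher for 10 and lower for 3 (median 0.16). The Sm core genes Snrpe and Snrpg had the same order of arrays. Snrpe gave 7245 in WT, against 7007, 8067 and 10812 in KO replicates 1 to 3. Snrpg gave 3084, 2783, 4774 and 5954 with 1 probe set (1448357_at) and 7082, 6620, 7765 and 9642 with the other. In each of the 3 WT lay above KO replicate 1 and below the other KO arrays, so the groups overlapped, and the log2 differences were 0.23 (SE 0.37), 0.48 (SE 0.47) and 0.16 (SE 0.36). Snrpd3, another Sm core gene, went the other way with 2 of 3 probe sets. One (1422884_at) stood at 2857 in WT and 2690.4, 2026 and 1985 in KO (log2 difference -0.37, SE 0.35), and another (1449629_s_at) at 315.3 against 244.7, 274.3 and 234.8 (log2 difference -0.31, SE 0.32), with every KO array below WT in both. The last (1422885_at) had a log2 difference of 0.17, but it was dim, with 89.6 in KO replicate 3 against a background of 87.8 there. Snrpb, which encodes the SmB proteins, gave 1997 against 2241, 2120 and 2102, a log2 difference of 0.11 (SE 0.32). Of the U2-specific genes, Snrpb2 gave 1565 against 1618, 2105 and 1965 with 1 probe set and 1969 against 1955, 2395 and 2404 with the other, while Snrpa1 had log2 differences of 0.15, 0.12 and -0.46 with its 3. The U1-specific gene Snrpc gave 1974 against 1951, 2430 and 2257.

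The promoters of Snrpe and Snrpg are shown because their probe sets had the same order of arrays, beside that of Srsf9, whose KO replicates 2 and 3 were below WT instead; the 3 were chosen after their values were seen. Each is the RefSeq window of 300 bases (GRCm38.p6), from 250 before to 50 after the start, with CCGGAAG and CCAAT in capitals on either strand. The windows lie at chr1:133610231-133610530, minus strand, at chr6:86371290-86371589, plus strand, and at chr5:115326927-115327226, plus strand. CCGGAAG is the core letters bound by ETS factors and CCAAT those bound by NF-Y; a match is a description of letters only.
Snrpe: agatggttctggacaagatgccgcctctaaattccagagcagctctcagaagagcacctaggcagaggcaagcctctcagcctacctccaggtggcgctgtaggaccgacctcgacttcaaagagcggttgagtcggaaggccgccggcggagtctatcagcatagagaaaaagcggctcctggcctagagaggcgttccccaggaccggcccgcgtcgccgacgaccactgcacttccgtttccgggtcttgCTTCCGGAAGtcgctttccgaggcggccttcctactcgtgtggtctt
Snrpg: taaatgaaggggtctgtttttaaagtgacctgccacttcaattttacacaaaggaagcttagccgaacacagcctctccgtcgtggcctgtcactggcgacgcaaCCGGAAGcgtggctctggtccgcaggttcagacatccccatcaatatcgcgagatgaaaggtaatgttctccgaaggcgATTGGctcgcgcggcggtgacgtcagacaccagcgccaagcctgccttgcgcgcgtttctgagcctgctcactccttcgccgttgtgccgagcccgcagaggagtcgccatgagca
Srsf9: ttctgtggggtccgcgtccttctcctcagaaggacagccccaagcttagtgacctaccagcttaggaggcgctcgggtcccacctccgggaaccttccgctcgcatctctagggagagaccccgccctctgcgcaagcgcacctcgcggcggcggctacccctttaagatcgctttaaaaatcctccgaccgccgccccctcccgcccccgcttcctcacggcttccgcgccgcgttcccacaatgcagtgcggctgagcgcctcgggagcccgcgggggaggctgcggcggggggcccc

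Snrpe holds 2 overlapping matches to CCGGAAG on opposite strands and no CCAAT, Snrpg holds 1 of each, and Srsf9 holds 0 of either. Of the 46 member genes, 40 had a window in the RefSeq table, 54 windows in all because some genes have several starts. CCGGAAG was found in 20 of the 54 (37.0%), against 18.8% of 8125 windows of genes with a tested probe set and 8.86% of all 32851 windows. CCAAT was in 48.1%, against 37.7% and 37.4%, GGGCGG in 72.2%, against 64.9% and 35.7%, and TATAAA in 9.26%, against 6.94% and 13.6%, with both strands searched each time. Windows of 1 gene can overlap, so these shares are not independent. The median window of the members held 26 CG dinucleotides, against 21 for genes with a tested probe set.

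Probe sets of 1 gene could disagree in sign. Of 29 splicing factor genes with at least 2 tested probe sets, 20 (69.0%) had log2 differences of both signs, against 48.9% of 3007 such genes on the array. The median distance between a gene's lowest and highest log2 difference was 0.53, against 0.42, and no account was taken of how many probe sets each gene has. The widest gap was in Hnrnpab, which encodes an RNA-binding hnRNP. One of its probe sets (1426114_at) gave 1249 in WT and 1641, 1641 and 5029 in KO, so that KO replicate 3 was 4.03 times WT. Another (1448144_at) gave 1181 in WT and 1225, 728.3 and 425.5, with KO replicate 3 at 0.360 times WT, and the log2 differences were 0.93 (SE 0.66) and -0.69 (SE 0.56). Yet another (1455855_x_at) gave 7139 in WT and 7609, 7405 and 8422 in KO, a log2 difference of 0.13.

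Srsf1, the founding SR protein ASF/SF2, had 6 tested probe sets. They covered a wide range in KO replicate 3. The probe sets 1430982_at and 1452430_s_at gave 1588 and 2774 in WT, and their KO values were 1859, 1016 and 419.9 for the first and 2608, 1544 and 760.3 for the second. KO replicate 3 was thus 0.264 and 0.274 times WT. The probe sets 1428099_a_at, 1434972_x_at and 1428100_at stood at 0.769, 0.849 and 0.835 times WT in KO replicate 3, and 1453722_s_at lay between, at 0.499 times WT. The 6 log2 differences ran from -0.92 to 0.12. Hnrnpu, which encodes the scaffold attachment factor SAF-A, ranged from -0.60 (1423051_at, 3873 in WT and 4089, 2632 and 1546 in the KO arrays) to 0.45 (1434390_at, 386.7 and 422.5, 708.0 and 511.1).

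Sf3b1, the SF3b subunit that clamps the branch point, had 3 probe sets that diverged in KO replicate 3. The first (1418562_at) gave 2076 in WT and 2423, 3210 and 4219 in the KO arrays, the second (1418561_at) 530.5 and 603.8, 433.2 and 270.8, and the third (1449138_at) 2812 and 2709, 2862 and 2851. Their log2 differences were 0.62 (SE 0.40), -0.35 (SE 0.47) and -0.003 (SE 0.31). Sf3a1 gave 441.1 against 379.7, 208.1 and 135.0 with 1 probe set, the lowest log2 difference of all members at -0.95 (SE 0.54), and 78.6 against 77.8, 114.4 and 110.3 with the other. The latter probe set was the dimmest tested member, and in KO replicate 3 it lay not far above the background of 87.8. Hnrnpc, which encodes the hnRNP C proteins that bind uridine tracts, gave 7139 against 6414, 9187 and 10228 with 1 probe set and 1475 against 1344, 852.6 and 761.2 with the other. The 3'/5' ratio of beta-actin was highest in KO replicate 3 (1.82) and that of Gapdh in KO replicate 2 (1.03). Where in the transcripts the probe sets lie was not known here, and the part of RNA integrity in these gaps was not tested.

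**Figure D2:**
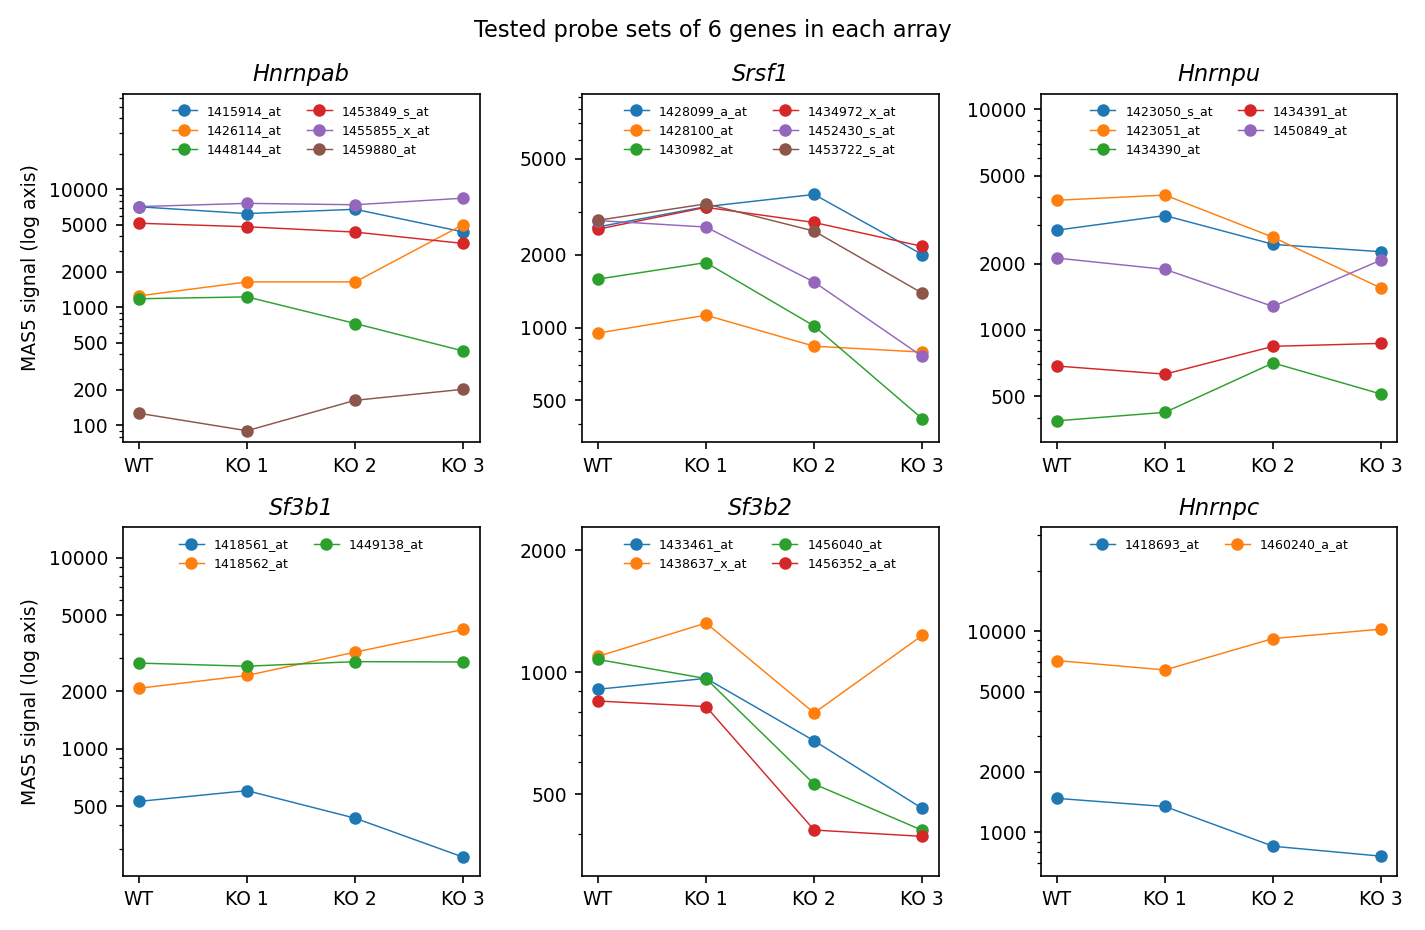
MAS5 signal (vertical axis, log scale) of every tested probe set of Hnrnpab, Srsf1, Hnrnpu, Sf3b1, Sf3b2 and Hnrnpc in the 4 arrays; each colour is 1 probe set, and lines only join its values, since the arrays have no order. Probe sets of Hnrnpab spread from 0.360 to 4.03 times WT in KO replicate 3, while in KO replicate 1 they stay nearer to WT.

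The split of the arrays showed in the counts of the members. Both KO replicates 2 and 3 were below both WT and KO replicate 1 in 55 of 112 members (49.1%), against 28.9% of all tested probe sets, and above both in 22 (19.6%), against 24.2%. By family, the first count was 25 of 48 hnRNP, 16 of 28 SR, 12 of 23 SF3 and U2AF and 2 of 13 Snrp probe sets, and the second was 9, 1, 6 and 6. By log2(signal + 14.4), 11 members in KO replicate 3 were at least 2-fold below WT and 2 at least 2-fold above, against 8.1% and 4.19% of all tested probe sets, whereas in KO replicate 1 there were 0 of either kind, against 1.18% and 0.752%. In KO replicate 2, 3 members were at least 2-fold below WT, against 3.84%, and 0 at least 2-fold above, against 2.88%; all 3 were of Sf3a1 or Sf3b2. On the signals with nothing added, a count made after seeing the data, 13 members were at most 0.5 times WT in KO replicate 3, against 9.13% of all tested probe sets, since U2af1 and 1453722_s_at of Srsf1, both at 0.499 times WT, then joined, and 2 were at least 2 times WT, against 4.78%. The WT array was thus nearer to KO replicate 1 than to the other KO arrays, with an SD of the members' log2 differences of 0.21, against 0.42 and 0.66. The same order held over all tested probe sets, with SDs of 0.37, 0.55 and 0.69 in KO replicates 1 to 3, so it is not particular to the members.

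Other genes of the splicing machinery gave no called difference either. The list of 96 further splicing genes, such as the U5 proteins, the DEAH helicases, the LSm ring and the SR protein kinases, had 80 measured and 79 tested genes with 157 probe sets. None passed in either direction, 6 had an unadjusted p under 0.05 with a higher KO mean and 0 with a lower one, against 1.31% and 1.2% of all probe sets, and the median log2 difference was 0.064. The WT array was below all KO arrays in 58 of the 157 (36.9%), against 22.6% of all tested probe sets, and above all in 22, against 23.6%. The log2 differences of the 157 ran from -2.03 to 1.89, and the KO mean was higher for 86 and lower for 71. The 4 largest absolute moderated t values came from 2 genes, all with a higher KO mean. Luc7l2, which encodes a U1 snRNP-associated protein, gave 400.0 in WT and 770.8, 1704 and 1817 in KO with 1 probe set (1436766_at; log2 difference 1.71, SE 0.53, unadjusted p = 0.0147, limma adjusted p = 0.999). Rbm39, a U2AF-related splicing factor, gave 72.8 against 158.5, 383.3 and 477.8 (1442744_at), 220.3 against 386.5, 519.0 and 472.8 (1446148_x_at) and 212.9 against 352.4, 662.7 and 589.4 (1442745_x_at), with log2 differences of 1.89, 1.003 and 1.22. In all 4 of these probe sets every KO array was above WT, and KO replicate 1 was the nearest to it.

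The genes that assemble snRNPs, among them the SMN complex and the Prmt5 methylosome, had 22 tested probe sets for 12 genes, of which 0 passed and 0 had an unadjusted p under 0.05 (median -0.13). Gemin2 gave 115.8 in WT and 211.9, 171.7 and 252.4 in KO (log2 difference 0.78, SE 0.35). Wdr77, the Prmt5 partner that presents Sm proteins for methylation, gave 310.7 against 238.5, 152.1 and 110.2, a difference of -0.90 (SE 0.45). Neither passed (limma adjusted p = 0.999 for each).

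Set beside other housekeeping groups, the 69 proteasome subunit probe sets had medians of 0.0079, 0.0023 and 0.041 in KO replicates 1, 2 and 3. The 87 cytosolic ribosomal protein probe sets had -0.15, 0.60 and 0.88, with 74 of 87 above both WT and KO replicate 1 in KO replicates 2 and 3. A list of 32 probe sets for proliferation genes, such as Mki67 and Top2a, had medians of 0.14, -0.39 and -0.47, and 22 of 32 were below both WT and KO replicate 1 in KO replicates 2 and 3. The medians of all members, at 0.076, -0.15 and -0.25, had the signs of the proliferation list in all 3 arrays. So did those of the hnRNP genes (0.087, -0.2 and -0.29) and SR proteins (0.16, -0.15 and -0.38). All tested probe sets (0.016, -0.0074 and -0.05) and the snRNP assembly genes (0.06, -0.085 and -0.16) had these signs too. The match in sign is therefore not particular to the members. The Snrp medians, at -0.017, 0.15 and 0.19, had the signs of the ribosomal list. The SF3 and U2AF medians, at -0.011, -0.24 and -0.17, had the signs of neither list in all 3 arrays. In KO replicate 1 the medians of the Snrp genes and of SF3 and U2AF were very small, so their signs there carry little weight. The summed signal of the proliferation list was 41013 in WT and 38053 to 42893 in the KO arrays. Pcna gave the largest part of that sum, with 11842 in WT and 11577, 14181 and 15509.5 in KO replicates 1 to 3. It thus ran opposite to the medians of the list, and the sum does not stand for most of its genes. No test of a difference between these sets was made, and the part of proliferation in the splicing factor values was not tested.

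**Figure D3:**
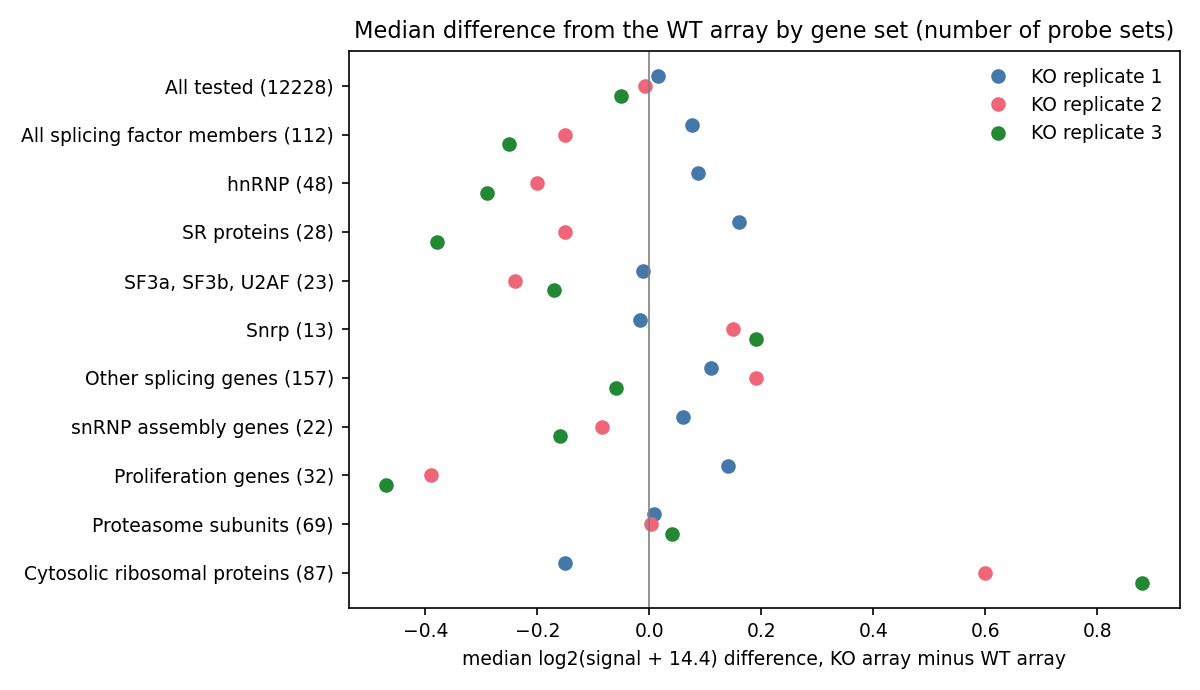
Median difference in log2(signal + 14.4) from the WT array (horizontal axis) in each KO array, for all tested probe sets, the splicing factor families and the comparison lists, with the number of probe sets in brackets. Splicing factor members sit at 0.076, -0.15 and -0.25 in KO replicates 1, 2 and 3, and cytosolic ribosomal proteins at -0.15, 0.60 and 0.88.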

How the data were processed

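Each of the 4 samples was measured on 1 Affymetrix array. The authors deposited linear signal intensities from MAS5, per the submitters' processing notes, and each array had been scaled by the authors to 1 trimmed mean; the MAS5 version is not given in the sources used here. Gene symbols came from the platform annotation. From the deposited intensities, log2(signal + 14.4) was computed, where 14.4 is 0.1 times the median of all values, so fold changes of dim probe sets are understated. Of 20380 single-gene probe sets that are no controls, the 40% with the lowest mean were left out, leaving 12228. Each probe set was a row. KO and WT were compared with limma 3.58.1 (R 4.3.3), in a two-sided test whose p-values were adjusted by Benjamini-Hochberg over the 12228, with a threshold of 0.05. There were 2 residual and 4.88 prior degrees of freedom. The number of arrays limits the precision, and an exact permutation test of 1 array against 3 cannot go below 0.25. The fit was tested on simulated data.

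The members and gene lists were chosen with earlier results of these data known. Probe sets were named by a rule. In each family it took the 5 with the largest absolute moderated t and the probe set with the highest mean. It also took the 8 members with the largest SD over KO arrays and the 6 genes whose probe sets differed most. Of the further splicing genes it took the 4 largest absolute moderated t values. Others are named for their role or were chosen after their values were seen. The alternatives were other scalings, pseudocounts and filters, other choices of probe sets, other eBayes settings, each KO array left out, and the pair of arrays as a block.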

Additional observations from a re-analysis of the deposited data

Results flagged for a closer look

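Control probe sets for 18S ribosomal RNA, which the comparison does not use, had a median signal of 946 in KO replicate 2 and 2820 in KO replicate 3, above the 4.64 of the WT array. They are given because they lie outside the main measurement and differ between arrays of 1 genotype.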

How the results depend on the processing

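No splicing factor probe set passed the adjusted threshold in limma under any of the 14 alternatives, and no further splicing gene did in either direction. Over all probe sets the count stayed at 0 except without KO replicate 1, where it was 2, so that the range over the fits without 1 KO array was 0 to 2. Of 359 recomputed log2 differences of 31 named probe sets, 347 kept their sign and 12 turned. When the array pairs formed a block, so that the genotype difference was that of KO replicate 1 from WT alone, the values turned to 0.05 for Hnrnpab (1448144_at), -0.15 for Hnrnpc (1460240_a_at), 0.50 for Hnrnpdl (1428224_at), 0.08 for Hnrnpu (1423051_at), -0.01 for Sf3a1 (1419087_s_at), 0.18 for Sf3b1 (1418561_at), -0.05 for Snrpe, -0.15 for Snrpg (1448357_at), 0.23 for Srsf1 (1430982_at) and 0.14 for Srsf2 (1427504_s_at). The cause was not tested. In that fit the median was 0.076 over all members, 0.087 for hnRNP genes, 0.16 for SR proteins, -0.011 for SF3 and U2AF and -0.017 for Snrp genes. Leaving out 1 KO array at a time moved Sf3b6 (1417055_at) between -0.27 and 0.07, Srsf1 (1428099_a_at) between -0.05 and 0.36, the SF3 and U2AF median (-0.33 without KO replicate 1) between -0.33 and -0.081, and the members with WT below all KO arrays between 25 and 31 and with WT above all between 28 and 59, beside the shares over all probe sets given with these counts before. With WT below and above all KO arrays there were 8 and 8 members with 1 probe set per gene (17.4% each, against 23.2% and 20.6% of all), 9 and 9 with the mean of a gene's probe sets (19.6% each, against 22.3% and 23.8%), and 8 and 14 without probe sets named _s_at, _x_at or _a_at (14.8% and 25.9%, against 22.3% and 23.8%), where fewer probe sets were tested. The SR median was 0.026 with 1 probe set per gene. No paired analysis by replicate number was possible because the labels pair no KO sample with the WT sample; the block above follows the array pairs seen in the data. The single WT array limits every value, since its own spread cannot be measured.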
